A study of Saccharomyces cerevisiae with 161 samples.

Results

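Red1 and Hop1 peaks that occurred together at places without a Rec8 peak were examined in wild-type yeast 3 h after meiotic induction. They were selected on overlap alone, from 1 list of broad ChIP-seq peaks for each protein. A Red1 peak was taken if it overlapped any Hop1 peak by 1 bp or more and did not touch a Rec8 peak, and Hop1 peaks were taken in the same way against Red1 and Rec8. This gave 121 of 1571 Red1 peaks and 122 of 1514 Hop1 peaks, called Rec8-free peaks here. Of the 1428 Red1 peaks with a Hop1 peak, 8.47% were Rec8-free, and the share of the 1441 Hop1 peaks with a Red1 peak was also 8.47%. These shares are the rule itself and were not tested. With a −log10 q-value of at least 5 required in the Red1 and Hop1 lists, 80 Red1 and 80 Hop1 peaks were left.

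Meiotic chromosomes fold into loops anchored on a protein axis. Rec8 is the meiosis-specific kleisin subunit of cohesin, the ring-shaped complex that holds sister chromatids together and anchors the loops. Red1 is an axis protein that interacts with Rec8 and binds Hop1, a HORMA-domain protein. Red1 and Hop1 promote DNA double-strand break formation and direct repair towards the homologous chromosome.

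The lists came from wild-type cells of the SK1 background, with no treatment given, harvested 3 h after transfer to sporulation medium. By the labels there were 4 Red1, 4 Hop1 and 2 Rec8 ChIP samples. Red1 and Hop1 were precipitated with antibodies against the proteins themselves, Red1 in strains H119 and H6408 and Hop1 in H119, H574 and H6408, the last of which also carries SMC4-PK9. Rec8 was precipitated with an anti-HA antibody in strain H4471, so the lists differ in strain and antibody as well as in protein, and these cannot be told apart. The authors combined the replicates before calling peaks, so no value below has a replicate error, and the read depth behind the lists is unknown. Intervals in brackets are exact (Clopper-Pearson) 95% binomial intervals over peaks and cover counting error only. The values that follow come from the libraries that chose the peaks, and comparisons with the Red1 peaks that met both Hop1 and Rec8 are descriptions. Positions are in SK1 coordinates, for which no gene annotation was used here.

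The Rec8-free peaks of both lists marked largely the same places, since the rule makes each overlap a peak of the other list. Joined where they shared sequence, they formed 139 loci, of which 102 held Rec8-free peaks of both lists, 18 held Red1 only and 19 held Hop1 only. The loci had a median width of 782 bp, reached at most 5083 bp and covered 1.15% of the chromosomes. The Rec8-free peaks made up 3.05% of all bp in Red1 peaks and 2.62% of all bp in Hop1 peaks, whereas Red1 peaks that met both Hop1 and Rec8 held 94.8% of the Red1 bp.

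Rec8-free peaks were narrow. Their median width was 636 bp in the Red1 list (quartiles 361 and 1137 bp, n = 121), against 1936 bp for Red1 peaks that met both Hop1 and Rec8 (quartiles 1157 and 3062 bp, n = 1307). The widest Rec8-free Red1 peak spanned 3259 bp, against 28539 bp for the widest that met both. Hop1 peaks gave the same order, with a median of 549 bp in 122 Rec8-free peaks and 1859 bp in 1319 peaks that met both Red1 and Rec8. A small width was not particular to the Rec8-free peaks. The 94 Red1 peaks that met neither Hop1 nor Rec8 had a lower median, 389 bp. For the 40 Hop1 peaks that met neither Red1 nor Rec8 it was 426.5 bp. The ranges overlapped in both lists, and the narrowest peak of each list was 200 bp, the length to which the authors extended their reads.

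They were also weakly enriched. The median fold enrichment over input was 1.25 in Rec8-free Red1 peaks (range 1.07 to 1.70), against 1.73 in Red1 peaks that met both (range 1.10 to 3.68). Ranked within the whole Red1 list, the Rec8-free peaks had a median percentile of 16.4, against 58.3 for those that met both. Only 2 of 121 Rec8-free Red1 peaks exceeded the median of the Red1 list, against 781 of 1307. For Hop1, the medians were 1.21 in Rec8-free peaks and 1.67 in peaks that met both, and 1 of 122 Rec8-free Hop1 peaks lay above the list median. Peaks that met neither of the other 2 proteins were weaker still. Their median fold was 1.17 in 94 Red1 peaks (median percentile 6.84) and 1.17 in 40 Hop1 peaks (median percentile 8.55). The median −log10 q-value of the Rec8-free Red1 peaks was 13.5, against 115 in peaks that met both. It was under 5 in 16 of the 121 Rec8-free peaks (13.2%) and in 9 of the 1307 that met both (0.689%).

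**Figure D1:**
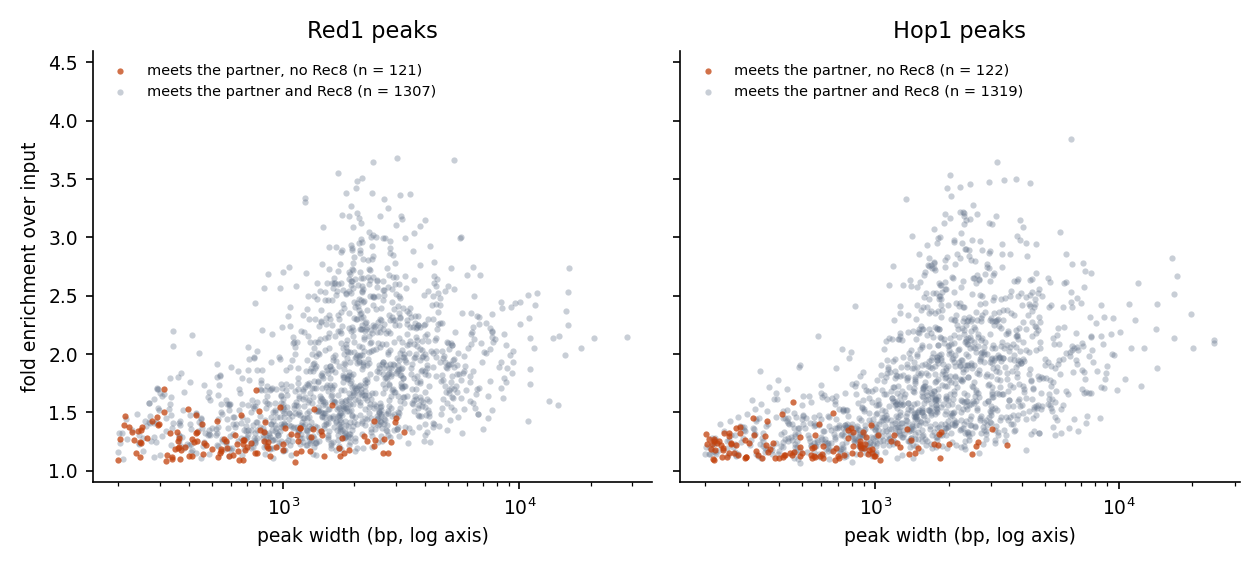
Fold enrichment over input against peak width (log axis) for single peaks of the Red1 list (left) and the Hop1 list (right). Orange points are the 121 Red1 and 122 Hop1 Rec8-free peaks, grey points those that met all 3 proteins, and the orange points stay in the lower left, at or below 1.70-fold for Red1 and 1.59-fold for Hop1.

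A narrow peak has less sequence with which to meet another list, so the share of Rec8-free peaks was also counted by width. Among Red1 peaks with a Hop1 peak, 49 of 146 up to 500 bp wide were Rec8-free, or 33.6% (26.0 to 41.8). The share was 17.8% (12.9 to 23.5) between 500 and 1000 bp, 5.05% (3.19 to 7.54) between 1000 and 2000 bp and 2.75% (1.43 to 4.76) between 2000 and 4000 bp. None of the 196 wider peaks was Rec8-free, for which the interval reaches 1.86%. Hop1 peaks followed the same course, with 33.3% of peaks up to 500 bp and 1.46% of 412 peaks between 2000 and 4000 bp. Within each width class the Rec8-free Red1 peaks were the less enriched. Their median fold was 1.26 against 1.40 in peaks up to 500 bp and 1.27 against 1.97 in peaks of 2000 to 4000 bp. Enrichment hardly followed width among Rec8-free Red1 peaks (Spearman's rho −0.01, n = 121) and did so in peaks that met both (rho 0.45, n = 1307). The ranges of width and of enrichment differ between these sets, and the part of this in the 2 values was not tested. These correlations are across peaks of the same libraries and are descriptions.

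Sorted by enrichment instead, 87 of the 259 Red1 peaks with Hop1 up to percentile 25 of the Red1 list were Rec8-free (33.6%, 27.9 to 39.7). The share was 32 of 386 (8.29%) between percentiles 25 and 50, 2 of 391 (0.512%) between 50 and 75 and 0 of 392 above 75, for which the interval reaches 0.937%. Rec8-free peaks were thus a minority of the peaks with both axis proteins in every class of width and of enrichment examined.

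The strongest Rec8-free Red1 peak lay on chromosome XV at 134858-135169. It was 312 bp wide, with a fold enrichment of 1.70 and a −log10 q-value of 106, and its Hop1 peak at 134729-135187 was at once the most enriched of the Rec8-free Hop1 peaks, with a fold of 1.59. It lay 3118 bp from the nearest Rec8 peak, inside the longest gap between neighbouring Rec8 peaks of the whole list, 28575 bp. Second came a peak on chromosome IX at 318163-318931, 2185 bp from Rec8, with folds of 1.69 for Red1 and 1.50 for Hop1. These were the only Red1 peaks of the set above the median of their list. The next were at 227580-229181 on chromosome VII (1.56-fold), at 824686-825653 on IV (1.54-fold) and at 90189-91533 on II (1.53-fold).

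The other peaks among the 10 most enriched were on XV at 744854-745247, 713873-714665 and 257432-258094, on IV at 909648-909959, and on III at 13900-14326, with folds between 1.48 and 1.53. Of the 10, 4 were on chromosome XV. Hop1 ranked lower than Red1 in all 10 of these pairs, which were chosen on Red1. The widest margin was on XV at 713873-714665, at percentile 41.9 of the Red1 list, whose Hop1 peak stood at percentile 3.50 of its own list with a fold of 1.13. Among Rec8-free Hop1 peaks, those at places 3 and 4 lay on XV at 239712-240125 (1.48-fold) and on II at 673151-673464 (1.45-fold).

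Red1 and Hop1 peaks at Rec8-free loci, which overlap by the rule, were closely placed. The median Rec8-free Red1 peak had 87.9% of its width inside Hop1 peaks, against 96.9% for Red1 peaks that met both, and 120 of the 121 met exactly 1 Hop1 peak. The whole width lay inside Hop1 in 29 of 121, and under 50% of it in 20 of 121 (16.5%, 10.4 to 24.4), against 60 of 1307 (4.59%, 3.52 to 5.87) among peaks that met both. In 100 pairs, a Rec8-free Red1 peak and a Rec8-free Hop1 peak met each other and no other Red1 or Hop1 peak. Their midpoints were a median of 68 bp apart and at most 1019.5 bp. Red1 was the wider of the pair in 62 and Hop1 in 38, with median widths of 617 and 560.0 bp.

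Red1 and Hop1 ranked these loci less alike than the loci with Rec8 over the whole range of enrichment, but not among weak peaks. Across the 100 pairs the folds of Red1 and Hop1 had a Spearman's rho of 0.63, against 0.95 across 1157 such pairs whose Red1 peak met both. The range of enrichment differs between these sets. Among 539 of the 1157 with a Red1 fold no higher than the strongest Rec8-free peak, rho was 0.78. Below percentile 25 of the Red1 list the order turned round, with 0.48 across 71 Rec8-free pairs and 0.26 across 156 pairs that met both. The median absolute difference between Red1 and Hop1 percentiles was 6.08 in all Rec8-free pairs, against 5.17 in the 1157 and 6.92 in the 539. Below percentile 25 it was 4.98 in Rec8-free pairs and 7.50 in those that met both. These values are across peaks of the same libraries and are descriptions.

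Rec8-free peaks stood apart from Rec8 by kilobases rather than by a few base pairs. The distance to the nearest Rec8 peak, edge to edge, had a median of 2024 bp for Red1 (quartiles 1499 and 3467 bp, range 286 to 13024 bp) and 2034 bp for Hop1 (range 25 to 10541 bp). From midpoint to midpoint, the Red1 median was 3698 bp. Of the 121 Red1 peaks, 4 lay within 500 bp of a Rec8 peak, 9 within 1000 bp, 59 within 2000 bp and 111 within 5000 bp. The 94 Red1 peaks that met neither Hop1 nor Rec8 had a median distance of 2305 bp. In all 3 lists no neighbouring peaks were closer than 801 bp (the shortest gap was 804 bp in the Red1 list, 801 bp in the Hop1 list and 808 bp in the Rec8 list). The Rec8 peak nearest to a Rec8-free Red1 peak met another Red1 peak in 120 of 121 cases, and in 100 of 121 another Red1 peak was closer than Rec8. The part of this minimum spacing in these distances was not tested.

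**Figure D2:**
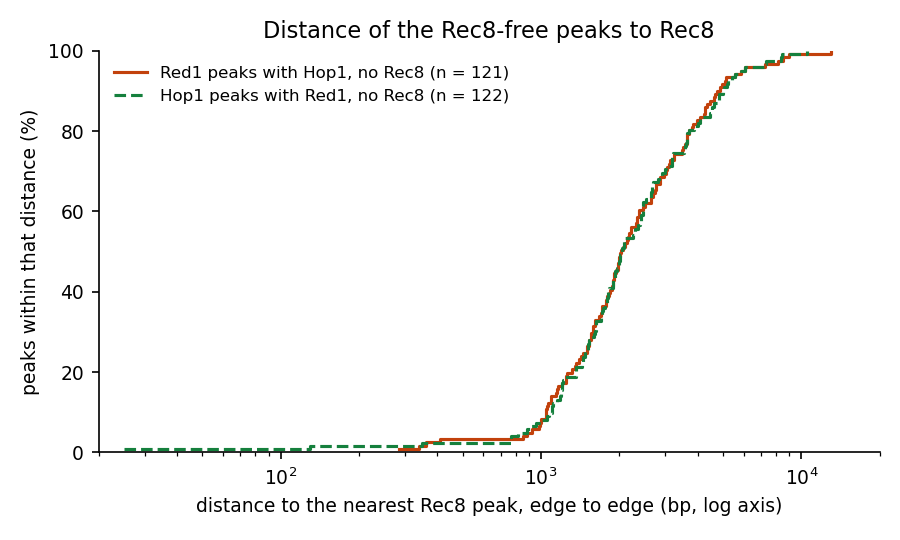
Cumulative share of Rec8-free peaks (%) against the distance to the nearest Rec8 peak, edge to edge (bp, log axis), for 121 Red1 peaks (solid orange) and 122 Hop1 peaks (dashed green). Both curves stay under 10% up to 1000 bp, reach 48.8% for Red1 and 47.5% for Hop1 at 2000 bp, and end at 13024 bp and 10541 bp.

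Peaks just inside and just outside the rule, which separates them by overlap with Rec8, are listed here. The 5 Rec8-free Red1 peaks nearest to Rec8 were on X at 51716-52888 (286 bp away), on I at 211589-213853 (340 bp), on XVI at 43386-44577 (362 bp), on XV at 528259-528480 (408 bp) and on XIV at 30102-30419 (851 bp). In all 5 the Hop1 partner itself reached a Rec8 peak. The 5 peaks that only just missed the set shared 75, 118, 118, 144 and 184 bp with a Rec8 peak, on XI at 680603-681949, on IV at 152972-154148, on V at 400942-401515, on IV at 1028727-1029679 and on II at 575368-576216. Their folds, 1.20 to 1.31, lay within the range of the Rec8-free peaks.

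In 18 of the 121 Rec8-free Red1 peaks (14.9%, 9.06 to 22.5) the Hop1 partner met Rec8, and in 19 of 122 Rec8-free Hop1 peaks (15.6%, 9.64 to 23.2) the Red1 partner did. The 18 had 16 Hop1 partners between them, with a median width of 5793 bp and a median percentile of 71.5 in their list, against 560.0 bp and 12.9 for the 102 partners of the other 103. Each of these 16 also met another Red1 peak. The 18 Red1 peaks lay a median of 878 bp from the next Red1 peak and 1053 bp from Rec8. The 103 peaks whose Hop1 partners were all Rec8-free lay a median of 1650 bp from the next Red1 peak and 2217 bp from Rec8, none nearer to it than 927 bp. Their median fold was 1.26 and their median width 624 bp, close to the values over all 121.

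Longer gaps between Rec8 peaks more often held a Rec8-free Red1 peak. Of the 1576 gaps between neighbouring Rec8 peaks, 105 (6.66%) did, 90 of them 1 peak and 15 of them 2. The median gap with such a peak was 9414 bp, against 4560 bp over all gaps. None of 303 gaps up to 2000 bp held one, for which the interval reaches 1.21%. The share was 2.39% (1.28 to 4.06) of 543 gaps of 2000 to 5000 bp, 7.87% (5.29 to 11.2) of 356 gaps of 5000 to 8000 bp and 17.1% (13.4 to 21.3) of 374 longer gaps. A longer gap also offers more room. The nearest Rec8 peak met another Red1 peak in 120 of 121 cases. No neighbouring Red1 peaks were closer than 804 bp, so short gaps had little room. The part of this in the shares and in the densities that follow was not tested. Per 100 kb of gap there were 0, 0.716, 1.37 and 1.79 Rec8-free Red1 peaks in the 4 classes, from short to long. Counted per gap and not per 100 kb, longer gaps also more often held a Red1 peak that met neither Hop1 nor Rec8. In the same 4 classes, 0 of 303, 17 of 543, 29 of 356 and 43 of 374 gaps held one. These classes spanned 401, 1815, 2265 and 4235 kb of gap. No density per 100 kb was computed for these peaks, so they are not set against the densities above.

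**Figure D3:**
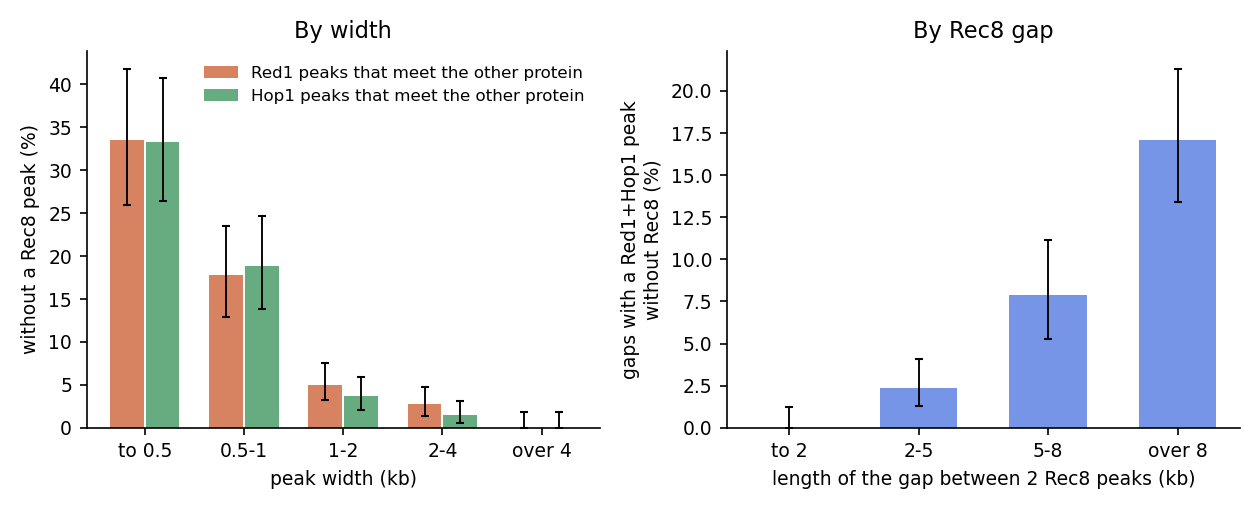
Left, share of peaks with both Red1 and Hop1 that lacked Rec8 (%), by peak width, for the Red1 list (orange) and the Hop1 list (green), falling from 33.6% and 33.3% up to 0.5 kb to 0 above 4 kb. Right, share of gaps between neighbouring Rec8 peaks that held a Rec8-free Red1 peak (%), by gap length, from 0 of 303 up to 2 kb to 17.1% of 374 above 8 kb, with exact 95% binomial intervals as bars in both panels.

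Within their gaps, 82 of 120 Rec8-free Red1 peaks had their midpoint in the middle 50% (68.3%, 59.2 to 76.5). Red1 peaks that met neither Hop1 nor Rec8 gave 70 of 94 (74.5%, 64.4 to 82.9), and these intervals overlap. The Rec8 peaks on either side of a Rec8-free Red1 peak had a mean percentile of enrichment in the Rec8 list whose median was 64.1, against 51.8 beside the Red1 peaks that met neither. The remaining Rec8-free Red1 peak, on XII at 1020486-1023499, lay beyond the last Rec8 peak of its chromosome, 5555 bp away from it.

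The neighbours of Rec8-free peaks were mostly peaks with all 3 proteins, as were most peaks of the whole Red1 list. Of the 242 neighbours on either side of the 121 Rec8-free Red1 peaks in the Red1 list, 195 met both Hop1 and Rec8 (80.6%), 30 were themselves Rec8-free with Hop1 (12.4%) and 14 met neither (5.79%). In the whole Red1 list these classes made up 83.2%, 7.70% and 5.98%. Within 10 kb of the midpoint, leaving out the peak itself, Rec8 peaks covered a median of 23.6% of the sequence, against 17.6% around Red1 peaks that met both. Red1 peaks covered 31.9% against 19.1%, and Hop1 peaks 33.2% against 19.6%. Around the 94 Red1 peaks that met neither Hop1 nor Rec8 the medians were near those of the Rec8-free peaks, at 23.1% for Rec8, 29.3% for Red1 and 29.7% for Hop1. Over whole chromosomes, Rec8 peaks covered between 23.1% (IV) and 33.0% (VI) of the span. Peaks that met both were wider and took more of the window out of the count, including Rec8 sequence by the rule. The part of this and of the minimum spacing of peaks in the difference was not tested.

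Position by position, Rec8 peaks covered on average 0.315% of the 1 kb on either side of Rec8-free midpoints, against 68.4% at peaks that met both, as the rule requires. At 2 to 5 kb the order was the opposite, with 29.9% against 18.0%, and it was 32.2% around Red1 peaks that met neither. The part of the minimum spacing of peaks in this order was not tested. Beyond 7 kb the values came closer, at 26.6% and 23.0%. The highest Rec8 coverage around Rec8-free peaks was 40.0%, at 3300 bp from the midpoint.

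**Figure D4:**
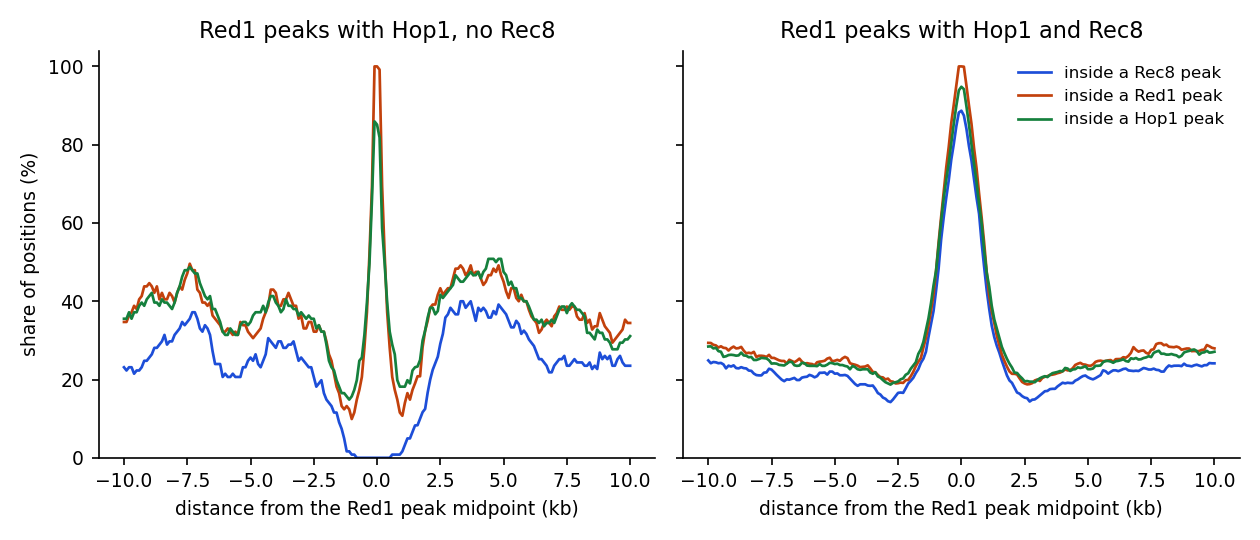
Share of positions (%) inside a Rec8 (blue), Red1 (orange) or Hop1 (green) peak, every 100 bp up to 10 kb on either side of Red1 peak midpoints, for the 121 Rec8-free peaks (left) and the 1307 peaks that met both (right). Rec8 is at 0 at the centre on the left and at 88.7% on the right, and at 2 to 5 kb it averages 29.9% on the left and 18.0% on the right.

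Many Rec8-free Red1 peaks had a summit in a list of Red1 summits, which the authors made in a separate call on Red1 ChIP-seq. By its label the list holds only summits scored over 20. A peak without a listed summit may therefore have one of lower score. Of 121, 80 contained at least 1 summit (66.1%, 57.0 to 74.5) and 15 contained 2 or more. Of the Red1 peaks that met both, 1270 of 1307 contained one (97.2%, 96.1 to 98.0) and 568 contained 2 or more. Of those that met neither Hop1 nor Rec8, 23 of 94 did (24.5%, 16.2 to 34.4). With a summit score of at least 50, the share among Rec8-free peaks was 36.4%. The 97 summits in Rec8-free peaks were 4.07% of the 2385 in the list.

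Their summits were low. The top summit of a Rec8-free Red1 peak had a median score of 54.3 (range 20.0 to 241, n = 80), against 515 (range 20.4 to 2847, n = 1270) in peaks that met both. The score type is not given in the sources used here, so it was read as a rank. The median percentile among all summits was 23.0, against 70.4. In the 23 Red1 peaks with a summit that met neither Hop1 nor Rec8, the top summit was lower still, with a median score of 32.6 and a median percentile of 10.9. The top summits of Rec8-free peaks lay a median of 2635 bp from the nearest Rec8 peak, the closest 492 bp and the farthest 13334 bp. The highest score, 241, belonged to the peak on XV at 134858-135169, followed by 204 on II at 90189-91533 and 189 on IX at 318163-318931.

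The 80 peaks with a listed summit were more enriched than the 41 without one, with median folds of 1.31 and 1.15. Their median widths were 679 and 570 bp. The peak with the most summits, 4, was the one beyond the last Rec8 peak on XII. It was 3014 bp wide, the second widest of the set, and its Hop1 peak at 1020487-1023497 had almost the same edges. The widest, 3259 bp, lay on III at 257374-260632, and the third on XIV at 712082-715050.

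Rec8-free Red1 peaks were found on all 16 chromosomes. Their share among Red1 peaks with a Hop1 peak was highest on III (6 of 31, 19.4%, 7.45 to 37.5) and I (4 of 24, 16.7%, 4.74 to 37.4), and lowest on XIII (4 of 115, 3.48%, 0.956 to 8.67) and V (2 of 62, 3.23%, 0.393 to 11.2). Chromosome XV held the most, with 15 of 126 (11.9%). The interval of each of the 16 chromosomes held the 8.47% over all of them. These intervals cover counting error over peaks of 1 pooled list only, and differences between chromosomes were not tested.

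**Figure D5:**
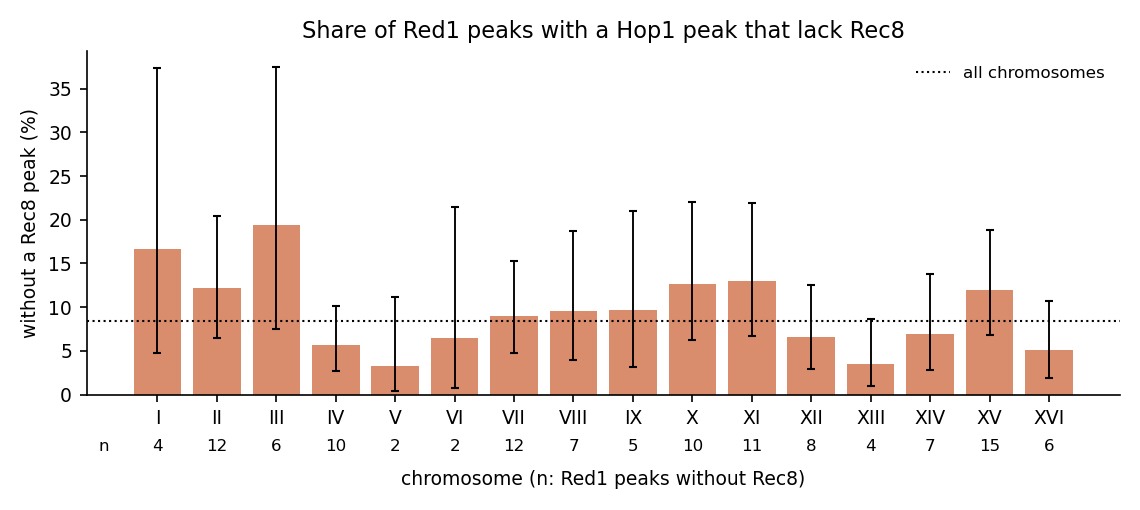
Share of Red1 peaks with a Hop1 peak that lacked Rec8 (%), by chromosome, with exact 95% binomial intervals as bars and the number of Rec8-free Red1 peaks under each chromosome. The dotted line is the share over all chromosomes, 8.47%, which lies inside all 16 intervals.

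The 3 shortest chromosomes, I, III and VI, held 12 of 121 Rec8-free Red1 peaks (9.92%, 5.23 to 16.7), against 74 of 1307 that met both (5.66%, 4.47 to 7.06). In the Hop1 list the values were 7 of 122 (5.74%) and 74 of 1319 (5.61%), so the higher share was seen with Red1 peaks only, and its interval held the share of peaks that met both. The midpoint lay within 20 kb of an end, taken as the outermost position in any list, in 12 of 121 Rec8-free Red1 peaks (9.92%, 5.23 to 16.7), at 10 of the 32 ends, against 76 of 1307 (5.81%, 4.61 to 7.22). For Hop1 it did so in 7 of 122 (5.74%) and 73 of 1319 (5.53%). Of the 12 Red1 peaks near an end, 5 were among the 18 whose Hop1 partner reached Rec8 and 7 among the other 103. The outermost listed position can lie well inside the chromosome. The peaks on X at 46856-47218 and 51716-52888 and on XVI at 43386-44577 were counted as near an end.

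In the Red1 list, the peaks farthest from and nearest to Rec8 lay within 20 kb of an outermost listed position. On III the gap between the first and second Rec8 peaks of the chromosome, 26971 bp long, held 2 Rec8-free Red1 peaks, at 13900-14326 and 16055-18916. They lay 13024 and 8930 bp from Rec8, the farthest of the Rec8-free Red1 peaks, with folds of 1.48 and 1.25. They met the same Hop1 peak, at 13834-17305, which at 3472 bp was the widest of the Rec8-free Hop1 peaks. The nearest, 286 bp from Rec8, lay on X at 51716-52888, 19.8 kb from the first listed position of that chromosome. The Hop1 peak nearest to Rec8, on XVI at 377354-377573 and 25 bp away, was 351 kb from an outermost listed position. Over the 121 Red1 peaks the distance to Rec8 followed enrichment weakly (rho 0.26) and width hardly at all (rho 0.07), as a description across peaks of the same libraries.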

How the data were processed

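The authors aligned the reads of each ChIP sample against an SK1 genome with Bowtie, keeping perfect matches at a single location, extended them to 200 bp and, on the combined replicates of each protein, called broad peaks with MACS2 2.1.1 at its default q-value cutoff. The deposited lists give the fold enrichment over input and the −log10 q-value of each peak, and the deposited summit list a score per summit. Read counts per sample were not used here. The Red1, Hop1 and Rec8 lists held 1571, 1514 and 1592 peaks. Intervals of the lists run past the ends of chromosomes III and VI of the S288C reference, so neither its annotation nor its sequence was used, and transcript levels (deposited as TPM by gene identifier) were left out. Of the 161 samples, 10 stand behind the lists, and 3 with contradictory labels were assigned to no group.

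Overlaps, distances and coverage were computed with NumPy 2.4.6 and SciPy 1.17.1 under Python 3.11.15, and checked on made-up lists. The members and lists were chosen with earlier results of these data known. Peaks are named by rank: the 10 most enriched, and the 5 widest, farthest from and nearest to Rec8, of highest summit score and nearest outside the rule for Red1, and the 5 most enriched for Hop1. No test was made. The 13 alternatives varied the q-value, the overlap with Rec8 or the partner, the distance measure, the summit score and the flank, joined peaks within 500 bp, or left out chromosomes I, III and VI or 20 kb at the ends.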

Additional observations from a re-analysis of the deposited data

How the results depend on the processing

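Of 84 values under 13 alternatives, 10 moved, a count by over 1.5 times and a median or share out of its 95% interval. The values are single counts, medians and shares of the Rec8-free peaks. Differences from the peaks that met both were not among them. Joining peaks within 500 bp gave 9 values equal to those above, since no neighbouring peaks were that close. With a −log10 q-value of at least 5 in the Red1 and Hop1 lists, 80 Rec8-free Red1 and 80 Hop1 peaks in 94 loci were left, with a median Red1 fold of 1.31 and a summit in 88.8% of the Red1 peaks. With the same limit in all 3 lists, which also removes 221 of the 1592 Rec8 peaks, there were 155 Rec8-free Red1 peaks, of which 80 belonged to the 121 and 75 were others. Their median width was 924 bp, their median fold 1.31, 89.7% held a summit, and Rec8 covered 20.7% of their surroundings. Measured from midpoint to midpoint, the median distance to Rec8 was 3698 bp. With summits scored at least 50, 36.4% of the 121 peaks held one.

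No paired analysis was possible because the authors called the peaks on pooled samples. For the same reason no replicate was left out, and the spread between cultures and the depth behind a missing Rec8 peak are unknown. A locus without a Rec8 peak is one at which none was called.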
